A study of Mus musculus with 18 samples.

Results

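The whole-ganglion transcriptome of mouse dorsal root ganglia was compared between mice given the chemotherapeutic drug paclitaxel and normal mice, using 9 input libraries, of 18 libraries in the series, that stand for 4 biosamples per group. Of 22021 genes listed, 13866 reached 1 CPM (counts per 1000000 reads over the listed genes) in at least 4 of the 8 biosamples and were tested. The material is the input of a translating ribosome affinity purification (TRAP) study, that is, the ganglion extract set aside before ribosomes were pulled down, and no pulldown library entered the comparison. All 8 biosamples came from C57BL/6J mice of both sexes, aged 8 to 12 weeks, that carried the Rosa26fsTRAP allele together with Nav1.8cre, so that neurons expressing the sodium channel Nav1.8 carry a green fluorescent tag on ribosomal protein L10a. The promoter does not restrict the input, which holds RNA of all cells of the ganglion. The normal group comprised biosamples 1 to 4. The paclitaxel group comprised biosamples 5 to 8, from mice given 4 mg/kg intraperitoneally every other day over 8 days, that is 4 injections and 16 mg/kg in total. Paclitaxel was given in a Cremophor vehicle, and the labels do not say whether the normal group received it. One paclitaxel biosample, number 7, was sequenced as 2 subsamples, which were averaged into 1 value. The number and sex of the animals behind each biosample are not stated, so the p-values measure the spread between these 8 samples, which may in part be technical. The input was 200 µl of an extract that had been cleared of nuclei at 3000 g and of mitochondria at 15000 g.

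Dorsal root ganglia hold the cell bodies of sensory neurons, each wrapped by satellite glial cells, together with Schwann cells around the axons, fibroblasts, vessels, resident macrophages and a connective tissue capsule. Paclitaxel stabilizes microtubules and stops dividing cells in mitosis. In the peripheral nervous system it causes a painful sensory neuropathy, and because the ganglia lie outside the blood-nerve barrier their neurons and glia are exposed to the drug.

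Values are the CPM of 3′ end libraries, with 4266007 to 14478012 reads per input, and a change is the difference of group means of log2(CPM + 1), paclitaxel minus normal. General neuronal markers were abundant in every library, and all 25 nociceptor markers looked at passed the filter on low values. The 8 inputs were not equally alike. Rank correlations between libraries ran from 0.905 to 0.963 within the normal group, from 0.962 to 0.990 within the paclitaxel group and from 0.925 to 0.978 between them. Normal 1 and normal 4 lay apart from the rest on the first principal component (37.5% of variance), and normal 2 lay apart on the second (26.6%). The normal group had 13152 to 13660 genes at 1 CPM or more and the paclitaxel group 13831 to 14043, without overlap (two-sided exact permutation test, p = 0.0286, which is the smallest that 4 against 4 allows, adjusted p = 0.0857 over 3 library measures). The levels of 4 Y-linked genes also varied between biosamples, summing to 48.7 to 218 CPM in the normal and 60.7 to 105 CPM in the paclitaxel group.

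After paclitaxel, transcripts of red cells, neutrophils, fat cells, satellite glia and mitochondria were among those that rose, whereas the neuronal ubiquitin hydrolase Uchl1, the antioxidant enzyme Gpx4, the mTORC1 subunit Akt1s1 and the sensory neuron homeobox gene Tlx3 were among those that fell. In limma with Benjamini-Hochberg adjustment, 234 of 13866 genes passed an adjusted p of 0.05 (1.69%), of which 208 were higher (1.5%) and 26 lower (0.188%). The higher genes changed by 0.81 to 2.59 on the log2 scale and the lower genes by -0.79 to -1.39. In RNA from a whole ganglion, fewer cells of a type and less RNA per cell cannot be told apart. Over all genes tested the median change was 0.14 and 8790 genes (63.4%) had a positive change, a background for every list below, and the groups did not overlap for 1143 higher genes (8.24%) and 446 lower genes (3.22%). The balance of directions depended on scaling. Median-ratio scaling, which brings the median change of all genes to 0.00, gave 105 higher and 52 lower genes, quantile normalization gave 113 and 32, edgeR on reads recovered from the values gave 99 and 46, and DESeq2 on the same reads gave 379 and 431. Of 52 passing genes in the set chosen for naming, 38 also passed under median-ratio scaling. The other 14, with adjusted p from 0.0519 to 0.0806 in limma, included Kdr, Camp, Adipoq, Lpl, Phlda3, Cyc1, Ndufa12, mt-Cytb, Trpm2, Tnfrsf1a, Ifitm3, Hp and Cfb, and all kept a positive change. With edgeR 37 of the 52 passed. The 15 that did not were 12 of these 14 (all but Trpm2 and Ifitm3) together with Hyal1, Esrrg and mt-Atp8. After quantile normalization 39 passed, and the 13 that did not included Uchl1, Esrrg, Kdr, Retn, Adipoq, Lpl, Phlda3, Cyc1, Ndufa12, Ifitm3, Hp and Cfb.

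**Figure D1:**
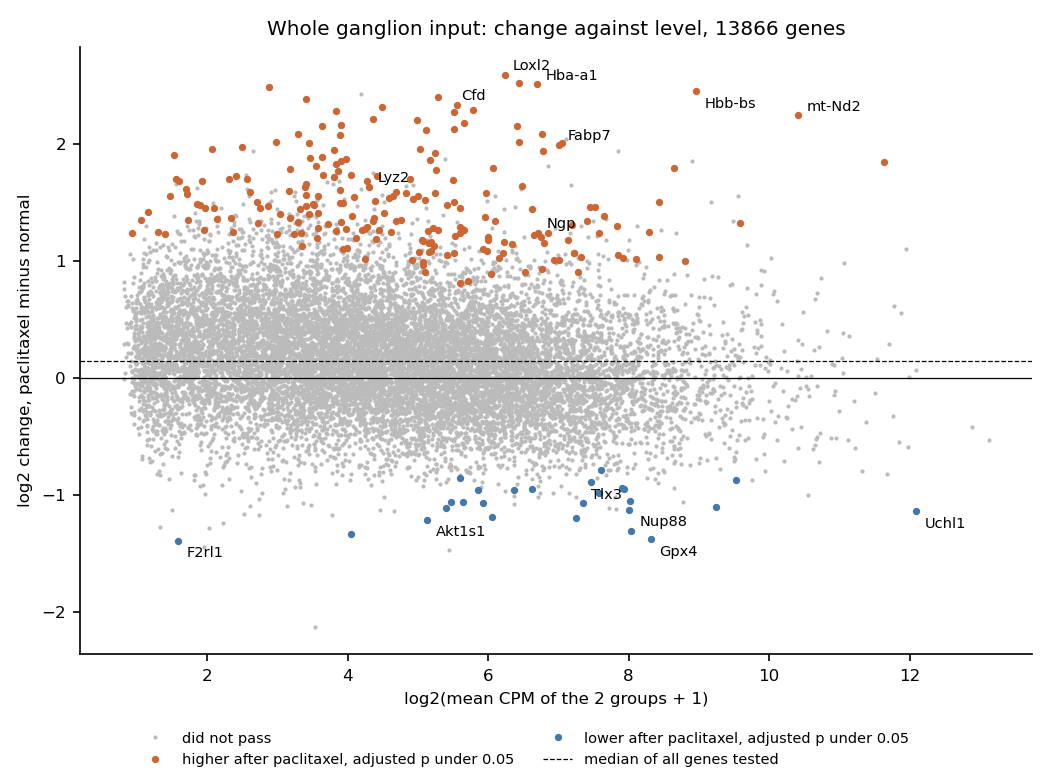
Change of each of 13866 genes in the whole ganglion input (vertical axis, log2 scale, paclitaxel minus normal) against its mean level (horizontal axis, log2 of mean CPM + 1), with genes that passed in colour. The 208 higher genes lie between 0.81 and 2.59 and the 26 lower genes between -0.79 and -1.39, and the dashed line marks the median of all genes, 0.14.

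The number of genes called also depended on single libraries. Without normal 1 no gene passed in limma (1639 higher and 389 lower at an unadjusted p under 0.05), and the lowest adjusted p among the 52 passing genes chosen for naming was then 0.0513. Without normal 2, in contrast, 676 genes were higher and 182 lower, and without normal 3 the counts were 357 and 34. Leaving out normal 4 gave 113 and 17. Leaving out paclitaxel 5, 7 or 8 left 21, 7 and 17 higher genes and 0, 0 and 1 lower genes, and leaving out paclitaxel 6 left 196 and 17. Of those 52 genes, 52 passed again without normal 2, 48 without normal 3, 43 without paclitaxel 6 and 29 without normal 4. Only 9 passed without paclitaxel 5, 9 without paclitaxel 8, 5 without paclitaxel 7 and 0 without normal 1. None of the 52 turned its direction under the alternatives tried, up to 23 per gene. The groups did not overlap for 206 of the 208 higher and all 26 lower genes. For those genes, leaving out a biosample could not turn the direction.

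**Figure D2:**
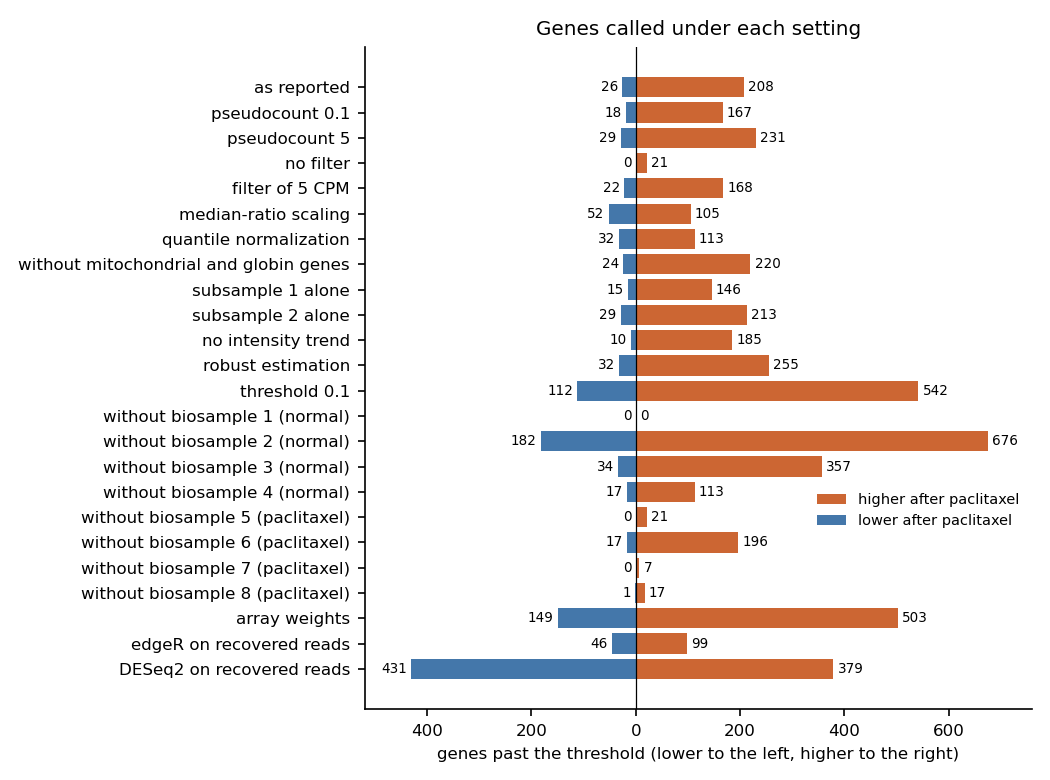
Number of genes past the threshold of each setting (horizontal bars, higher genes to the right and lower genes to the left of 0), with the reported analysis on top. Bars range from 0 genes without normal biosample 1 to 676 higher genes without normal biosample 2.

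The 26 genes that fell had a median of 217 CPM in the normal group and 96.1 CPM after paclitaxel. In all 26 the groups did not overlap, which the naming of the 12 largest falls also required. The lack of overlap given below for single falling genes is therefore no added evidence. The 208 that rose had a median of 12.5 CPM in the normal group and 37.7 CPM after paclitaxel. All 234 are annotated as protein coding, against 99.7% of all genes tested. Their median longest transcript was 2936 bases for the higher and 2656 bases for the lower genes, against 3495 bases for all genes tested. An internal run of at least 10 A, at which an oligo-dT primer can bind, was present in 19.7% of the higher and 11.5% of the lower genes, against 19.5% of all. A listed gene overlapped on the opposite strand in 18.3% of the higher and 34.6% of the lower genes, against 20.4% of all. Normal 3 was the highest normal library for 148 of the 208 higher genes (71.2%, against 25.5% of all genes) and paclitaxel 7 the highest paclitaxel library for 121 of them (58.2%, against 27.3%). The median over these 208 genes was 16.4 CPM in normal 3 and 10.2 to 10.4 CPM in the other normal libraries, and it was 47.6 CPM in paclitaxel 7 against 32.3 to 38.3 CPM in the other 3.

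Genes of sensory neurons among those that fell were Uchl1, Tlx3 and Hcn3. Uchl1, a deubiquitinating enzyme that is one of the most abundant neuronal proteins (chr5:66676091-66687234, plus strand, GRCm38), was at 6246, 7544, 5625 and 4670 CPM in normal 1 to 4 and at 2528, 2742, 2238 and 3354 CPM in paclitaxel 5 to 8. Every paclitaxel library lay below every normal one, and the change was -1.14 ± 0.27 (SE; limma, adjusted p = 0.0457). Uchl1 did not pass after quantile normalization (limma, adjusted p = 0.0919), and its call was kept in 14 of 23 alternatives. Tlx3, a homeobox factor that specifies sensory neurons (chr11:33200752-33203589, minus strand), was at 220, 184, 174 and 306 CPM in the normal libraries against 91.0, 111, 102 and 105 CPM, a change of -1.07 ± 0.21 (limma, adjusted p = 0.0243). The 4 paclitaxel values of Tlx3 were close together and the groups did not overlap. Hcn3, a hyperpolarization-activated channel subunit (chr3:89146074-89160196, minus strand), went from 66.5 ± 11.4 CPM (SD, n = 4) to 31.3 ± 5.37 CPM, a change of -1.06 ± 0.21 (limma, adjusted p = 0.0268). Hcn3 overlaps Pklr on the opposite strand, and whether the authors' counting used strand is not given in the sources used here.

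Of 16 general neuronal markers, Uchl1 alone passed. Altogether 3 members, Uchl1, the neuronal tubulin Tubb3 and the synaptic protein Snap25, had no overlap between the groups. All 3 were lower, and 3.22% of all genes were lower without overlap. Tubb3 was at 3986, 3477, 4981 and 4186 CPM in the normal libraries and at 2432, 2600, 1754 and 2653 CPM after paclitaxel, a change of -0.82 ± 0.25 that did not pass (limma, adjusted p = 0.107). Snap25 changed by -0.71 (adjusted p = 0.14). The summed level of the 16 markers was 18840 to 22080 CPM in the normal and 13930 to 15950 CPM in the paclitaxel libraries. Without Uchl1, their largest member, the sums were 13400 to 15830 and 11690 to 13350 CPM, still without overlap. The group means of these sums were 14760 and 12670 CPM. Those of Tubb3 alone were 4158 and 2360 CPM, so much of the difference left lay in Tubb3. The list's median change was -0.10 against 0.14 for all genes, and 6 of the 16 members had a positive change, against 63.4% of all genes.

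Several falling genes encode selenoproteins or parts of basic cell machinery. Gpx4, the selenoenzyme that removes lipid peroxides (chr10:80047166-80056439, plus strand), was at 497, 383, 256 and 741 CPM in normal 1 to 4 and at 139, 202, 160 and 171 CPM in paclitaxel 5 to 8. Its highest paclitaxel value lay below its lowest normal value, although the normal values differed widely, and the change was -1.38 ± 0.28 (limma, adjusted p = 0.0267). Sepw1, selenoprotein W, was at 297, 220, 183 and 150 CPM in the normal libraries against 85.8, 85.8, 78.1 and 110 CPM, a change of -1.20 ± 0.23 (limma, adjusted p = 0.0238). Among 21 genes of defence against reactive oxygen, Gpx4 was the only one that passed, and the list's median was 0.24. The direction was not shared by all selenoproteins. Sepp1, the secreted selenium carrier, picked out after its values were seen, was higher after paclitaxel, at 56.7 ± 31.6 CPM in the normal and 205 ± 48.0 CPM in the paclitaxel group (SD over 4 biosamples; adjusted p = 0.0228 in limma).

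Nup88, a nuclear pore protein (chr11:70943058-70969973, minus strand), had the lowest p among the genes that fell. Its values were 491, 271, 328 and 407 CPM in the normal group and 130, 159, 129 and 175 CPM after paclitaxel, a change of -1.31 ± 0.22 (limma, adjusted p = 0.0168). All 4 paclitaxel libraries lay below the lowest normal library, which the choice of genes required. Cct8, a subunit of the chaperonin that folds actin and tubulin, went from 833 ± 190 to 380 ± 39.6 CPM, a change of -1.11 ± 0.21. Drg2, a GTPase that associates with ribosomes, fell from 23.0 ± 8.87 to 8.02 ± 0.72 CPM, Polr2h, a subunit shared by the RNA polymerases, from 56.6 ± 11.9 to 25.9 ± 7.12 CPM, and Dck, the kinase of deoxycytidine salvage, from 82.6 ± 30.0 to 37.7 ± 6.34 CPM (adjusted p 0.0243 to 0.0449 in limma for these 4 genes). Nup88 overlaps Rabep1, Cct8 overlaps Usp16 and Polr2h overlaps Clcn2, each on the opposite strand. Mfsd7b, a heme exporter also called Flvcr1, fell from 91.9 ± 29.3 to 39.4 ± 9.78 CPM (limma, adjusted p = 0.0311). F2rl1, the protease-activated receptor PAR2 of nociceptors, had the largest fall among the 26 genes, -1.39 ± 0.32 (limma, adjusted p = 0.0427), but it is a gene of low level picked out after its values were seen, at 1.80 to 5.57 CPM in the normal and 0.42 to 1.02 CPM in the paclitaxel libraries.

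Akt1s1 and Atp6v1h, which also fell, encode a subunit of mTORC1 and a subunit of the lysosomal proton pump. mTORC1 is the growth kinase complex that is activated on the lysosome, with help from the Rag GTPases, their Ragulator anchor and the proton pump of that membrane. Akt1s1 encodes PRAS40, a subunit of mTORC1 that restrains the kinase (chr7:44848991-44855421, plus strand). It was at 48.5, 34.8, 38.5 and 71.3 CPM in the normal libraries and at 24.0, 25.9, 14.1 and 16.1 CPM after paclitaxel, a change of -1.22 ± 0.27 (limma, adjusted p = 0.0417). No paclitaxel value reached the lowest normal value. Akt1s1 overlaps Tbc1d17, and Atp6v1h overlaps Rgs20, on the opposite strand. Atp6v1h, a subunit of the lysosomal proton pump (chr1:5070018-5162529, plus strand), was at 545, 283, 258 and 343 CPM against 132, 164, 156 and 173 CPM, a change of -1.13 ± 0.23 (limma, adjusted p = 0.0311). Both genes were lower in every paclitaxel library.

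In the list of 45 genes of mTORC1 and its nutrient sensors, Akt1s1 alone passed, 24 had a positive change and the median was 0.04, which became -0.11 under median-ratio scaling and -0.08 after quantile normalization. DESeq2 called 1 member higher and 4 lower. Rraga, which encodes the RagA GTPase, was at 92.4, 375, 153 and 52.0 CPM in normal 1 to 4 and at 246, 234, 193 and 159 CPM in paclitaxel 5 to 8. The normal values spanned the paclitaxel ones, and the change of 0.66 (95% interval -0.26 to 1.59) did not pass (limma, adjusted p = 0.424). The intervals were -0.18 to 1.56 for the kinase gene Mtor, -0.11 to 0.93 for its scaffold Rptor, -0.23 to 0.72 for the cap-binding factor Eif4e and -0.19 to 1.03 for its repressor Eif4ebp1. Among 46 translation factors and 81 cytosolic ribosomal proteins none passed in limma, and the medians were 0.17 and 0.23. At an unadjusted p under 0.05, 5 translation factors were higher and 2 lower, and 10 ribosomal protein genes were higher and 3 lower. edgeR called 0 of either list, and DESeq2 called 2 translation factors and 1 ribosomal protein gene, all lower. Under median-ratio scaling those medians were 0.02 and 0.08.

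The promoter sequences of several genes that fell held the same short palindrome. RefSeq windows of 300 bases around the transcription start (250 before and 50 after, GRCm38.p6) were at hand for 16 of the 26 lower genes, 146 of the 208 higher genes and 10569 of the genes tested. The letters CACGTG, an E-box that reads the same on both strands and is the core of the element bound by the lysosomal regulator TFEB, stood in at least 1 window of 7 of the 16 lower genes (43.8%), of 14 of the 146 higher genes (9.59%) and of 1188 of all genes with a window (11.2%). Counted by window the shares were 34.6%, 8.14% and 9.35%. The letters TATAAA, searched on both strands, stood in 11.5%, 8.14% and 7.59% of these windows, and CCAAT on both strands in 26.9%, 40.7% and 37.2%. This search was made after the lower genes were known, was not tested and does not show binding by TFEB or by any other factor. The 7 genes were picked for holding these letters, so that they share them is no finding. Their 10 places are shown, each with 40 bases on the strand of the gene, written 5′ to 3′, with CACGTG in capitals.
Drg2, chr11:60454502-60454541, plus strand: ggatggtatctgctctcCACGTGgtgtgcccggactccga
Epn1, chr7:5080192-5080231, plus strand: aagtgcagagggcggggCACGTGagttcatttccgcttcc
Lgmn, chr12:102439119-102439158, minus strand: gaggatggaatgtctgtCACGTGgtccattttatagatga
Mcoln1, chr8:3500431-3500470, plus strand: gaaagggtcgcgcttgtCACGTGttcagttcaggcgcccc
Mcoln1, chr8:3500457-3500496, plus strand: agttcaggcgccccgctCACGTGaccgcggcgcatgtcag
Polr2h, chr16:20717832-20717871, plus strand: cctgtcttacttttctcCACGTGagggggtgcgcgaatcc
Sgpp2, chr1:78310109-78310148, plus strand: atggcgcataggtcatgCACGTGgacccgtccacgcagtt
Snrpa, chr7:27195807-27195846, minus strand: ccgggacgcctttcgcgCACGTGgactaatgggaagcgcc
Snrpa, chr7:27196281-27196320, minus strand: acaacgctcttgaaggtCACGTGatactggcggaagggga
Snrpa, chr7:27196322-27196361, minus strand: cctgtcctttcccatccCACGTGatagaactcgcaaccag

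Mcoln1, the lysosomal calcium channel mucolipin 1, holds the palindrome at 2 places in its promoter window. It was picked out with Lgmn, a lysosomal protease, after the values were seen. Mcoln1 was at 66.3, 65.0, 61.1 and 54.6 CPM in the normal libraries and at 36.0, 37.3, 29.4 and 32.0 CPM after paclitaxel, a change of -0.86 ± 0.19 (limma, adjusted p = 0.0392). Both groups were tight and well apart. Lgmn went from 324 ± 101 to 163 ± 22.3 CPM (limma, adjusted p = 0.0457).

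Among genes with no overlap between groups and a mean of at least 5 CPM, the 12 largest increases were from 2.21 to 2.59 on the log2 scale, and 3 of these are discussed with their cell types below (Hba-a1, Hbb-bs and Cfd) and 1 with the mitochondrial genes (mt-Nd2). Loxl2, an enzyme that cross-links collagen (chr14:69609068-69695834, plus strand), was at 16.1, 14, 45.5 and 13.6 CPM in normal 1 to 4 and at 127, 90.0, 179 and 108 CPM in paclitaxel 5 to 8. Every paclitaxel value was above normal 3, which stood above the other normal libraries, and the change was 2.59 ± 0.34 (limma, adjusted p = 0.00645). Rep15, an effector of Rab15 in membrane recycling, rose from 11.5 ± 4.96 to 64.8 ± 25.8 CPM, and Efcc1 from 27.0 ± 15.2 to 145 ± 49.5 CPM. Hyal1, a lysosomal hyaluronidase, was listed at 0 in normal 4 and reached at most 3.97 CPM in the normal group, against 8.34 to 16.5 CPM after paclitaxel. Hyal1 overlaps Hyal3 and Naa80 on the same strand. Gtf2h4, a subunit of the repair and transcription factor TFIIH, and Chaf1b, a subunit of a histone chaperone used in DNA replication, rose to 22.8 ± 14 and 32.0 ± 7.12 CPM from 3.83 ± 2.63 and 7.08 ± 4.84 CPM.

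Among the 12, 2 are best known from the thymus. Ptcra encodes the pre-T cell receptor alpha chain and Psmb11 the proteasome subunit of thymic cortical epithelium. Ptcra was at 2.16, 0.86, 4.90 and 1.88 CPM in the normal and 11.7, 10.1, 28.6 and 16.8 CPM in the paclitaxel libraries (change 2.38 ± 0.39, limma adjusted p = 0.0142). Psmb11 was at 4.80, 2.82, 10.5 and 7.03 CPM against 24.2, 18.6, 68.0 and 36.0 CPM (change 2.32 ± 0.40, limma adjusted p = 0.0204). For both genes normal 3 was the highest normal library and paclitaxel 7 the highest paclitaxel library. The T cell genes Cd3e, Cd3g and Cd8a were under the filter, with group means of 0.14 to 0.50 CPM.

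**Figure D3:**
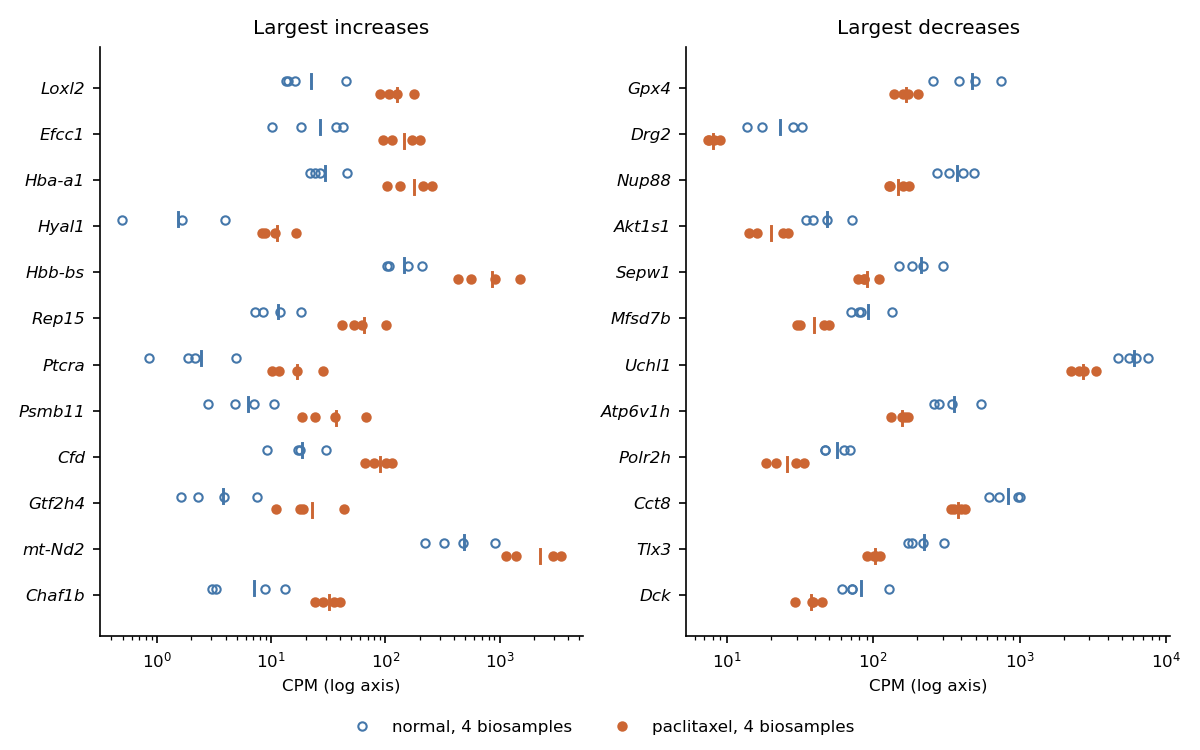
Levels of the 12 genes with the largest increases (left) and the 12 with the largest decreases (right) among those chosen for naming, in CPM on a log axis, with 1 circle per biosample and a vertical bar at each group mean; a value of 0 (Hyal1 in normal 4) is not drawn. The paclitaxel values (filled) and the normal values (open) do not overlap in these 24 genes, which the choice of genes required.

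Genes of circulating blood cells rose unevenly. Hba-a1, an alpha globin gene (chr11:32283511-32284465, plus strand), was at 21.7, 26.5, 24.0 and 45.9 CPM in normal 1 to 4 and at 134, 104, 254 and 215 CPM in paclitaxel 5 to 8, a change of 2.51 ± 0.30 (limma, adjusted p = 0.00645). Hbb-bs, a beta globin gene (chr7:103826534-103828096, minus strand), was at 103, 156, 210 and 108 CPM against 562, 430, 1494 and 919 CPM, a change of 2.45 ± 0.35 (limma, adjusted p = 0.00858). The paclitaxel libraries were all above the normal ones for both genes, and paclitaxel 7 was the highest. Their close copies behaved otherwise: Hba-a2 was at 128 ± 37.6 and 127 ± 20.0 CPM (change 0.02), and Hbb-bt at 667 ± 143 and 1280 ± 397 CPM (change 0.91, limma adjusted p = 0.0841). How reads were divided between near-identical globin genes is not known, so the change of a single copy is uncertain. Of 10 red cell genes 2 passed, 8 had a positive change, near the share over all genes, and the median was 0.56, and the summed level was 982 to 1344 CPM in the normal and 1765 to 3890 CPM in the paclitaxel libraries. Alas2, which makes heme in red cell precursors, changed by 0.33 and did not pass.

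Neutrophil granule genes rose as well. S100a8, a subunit of calprotectin, was at 161, 146, 222 and 154 CPM in the normal libraries and at 375, 298, 832 and 558 CPM after paclitaxel, a change of 1.5 ± 0.28 (limma, adjusted p = 0.0239). Ngp, neutrophilic granule protein, was at 58.2, 51.8, 74.0 and 54.6 CPM against 123, 108, 240 and 125 CPM, a change of 1.24 ± 0.25 (limma, adjusted p = 0.0267). Camp, the antimicrobial peptide cathelicidin, rose by 1.27 ± 0.25, with groups that did not overlap. In all 3 genes paclitaxel 7 was highest. S100a9, the partner of S100a8, went from 190 ± 80.8 to 358 ± 129 CPM and did not pass (limma, adjusted p = 0.144). Of 15 listed leukocyte markers 8 were tested, of which 3 passed and all 8 had a positive change (median 1.10). The shares over all genes were 1.5% called higher and 63.4% with a positive change. The B cell marker Cd79a was under the filter.

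The lists of fat cell and leukocyte genes had the highest medians. Cfd, the serine protease adipsin that fat cells secrete (chr10:79890853-79892655, plus strand), was at 17.3, 9.18, 30.3 and 18.1 CPM in the normal and at 78.8, 66.8, 101 and 114 CPM in the paclitaxel libraries, a change of 2.29 ± 0.30 (limma, adjusted p = 0.00645). Adipoq, the hormone adiponectin, was at 3.83, 4.47, 8.70 and 3.05 CPM against 13.1, 9.78, 23.8 and 15.9 CPM, a change of 1.48 ± 0.33 (limma, adjusted p = 0.0415). The groups did not overlap in either gene. Retn, the hormone resistin, rose by 1.68 ± 0.33, from 0.47 to 1.46 CPM in the normal to 2.45 to 7.08 CPM in the paclitaxel libraries. It met the filter on low values only through the paclitaxel group, and normal 4, at 0.47 CPM, was under its floor of 3 reads (0.703 CPM). Lpl, the lipase that frees fatty acids from lipoproteins, rose by 1.16 ± 0.27. In all, 4 of 10 tested members passed and all 10 had a positive change (median 1.11). Over all genes, 1.5% were called higher and 63.4% had a positive change. Under median-ratio scaling 2 passed, Cfd and Retn, and the median was 0.96. The summed level of the list was 276 to 546 CPM in the normal and 658 to 926 CPM in the paclitaxel libraries. Chrna1, the muscle acetylcholine receptor subunit, is not in the muscle list and was picked out after its values were seen. It was at 8.77, 14.5, 40.8 and 5.39 CPM in the normal and at 105, 63.9, 78.1 and 39.3 CPM in the paclitaxel libraries, a change of 2.27 ± 0.46 (limma, adjusted p = 0.0275). Paclitaxel 8 lay below normal 3, so the groups overlapped. Fat lies near the ganglia, and muscle adjoins the spine. None of 11 skeletal muscle genes passed in limma (2 higher and 0 lower at an unadjusted p under 0.05, 0 with edgeR or DESeq2), and their sum ran from 437 CPM in normal 4 to 2438 CPM in normal 2 against 1158 to 1795 CPM after paclitaxel. The part of adhering tissue in the results was not tested.

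**Figure D4:**
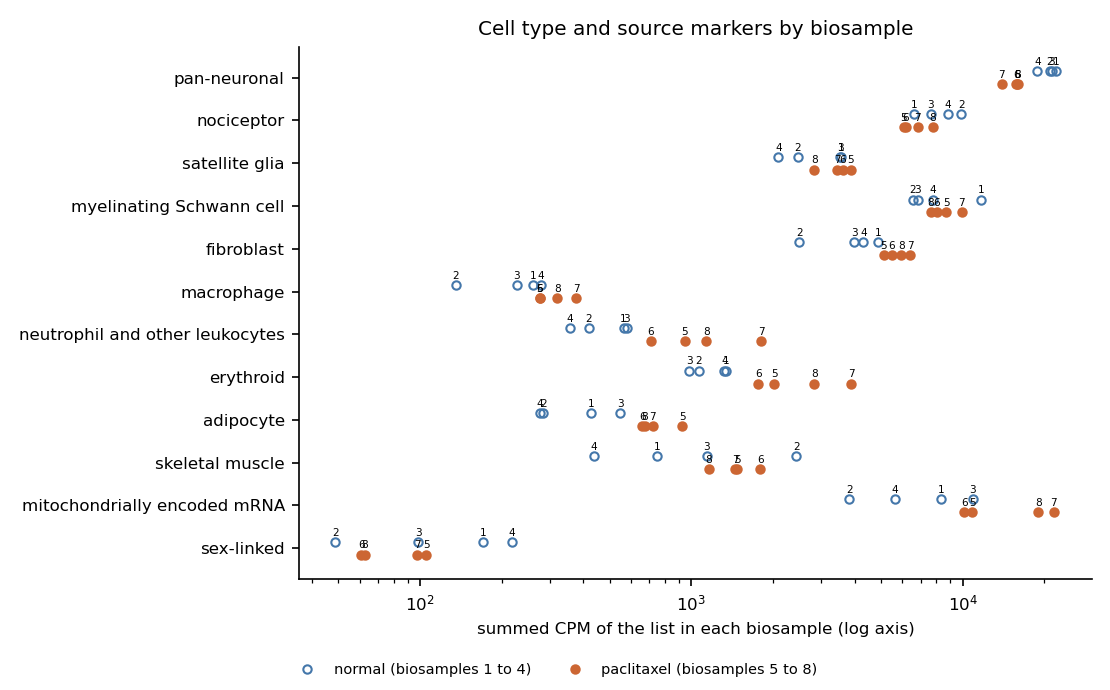
Summed level of 12 marker lists in each of the 8 inputs (horizontal log axis, CPM), with normal libraries as open and paclitaxel libraries as filled circles numbered by biosample. The sums of the neuronal, fibroblast, leukocyte, red cell and fat cell lists do not overlap between groups, whereas those of the nociceptor, satellite glia, Schwann cell, muscle and Y-linked lists do. Without its largest member, Gsn, the fibroblast sum also overlaps, at 1903 to 3880 and 3131 to 4604 CPM.

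Among markers of satellite glia, which surround each neuron, 2 of 14 passed, both higher (1.5% of all genes were called higher). Fabp7, a fatty acid binding protein that marks these cells (chr10:57784881-57788450, plus strand), was at 63.1, 41.3, 99.1 and 20.6 CPM in normal 1 to 4 and at 242, 135, 228 and 194 CPM in paclitaxel 5 to 8, a change of 1.99 ± 0.37 (limma, adjusted p = 0.0228). Slc1a3, the glutamate transporter GLAST (chr15:8634124-8710764, minus strand), was at 20.2, 8.86, 35.6 and 23.9 CPM against 75.5, 63.4, 72.6 and 55.7 CPM, a change of 1.69 ± 0.32 (limma, adjusted p = 0.0239). All paclitaxel values exceeded all normal values in both. Of the 14 markers, 12 had a positive change, against 63.4% of all genes (median 0.62). The changes ran from -0.95 to 1.99. At an unadjusted p under 0.05 in limma, 6 were higher and 1 lower. DESeq2 called 3 higher and 1 lower, and edgeR called 2, both higher. Gfap, the filament protein often used as a sign of glial activation, was at 5.77, 1.73, 3.80 and 3.99 CPM in the normal and 4.39, 4.93, 4.99 and 0.76 CPM in the paclitaxel libraries, with overlap and a change of -0.10 (95% interval -0.98 to 0.79). The summed satellite glia markers overlapped between groups, at 2092 to 3563 and 2839 to 3860 CPM.

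Other supporting cells gave single genes. Plekha4, 1 of 18 myelinating Schwann cell genes, rose from 95 ± 14.9 to 201 ± 37.0 CPM (change 1.07 ± 0.20, limma adjusted p = 0.0239), and the other 17, including the myelin protein gene Mbp, did not pass (median of the list 0.25). None of the 11 tested genes of repair Schwann cells passed in limma, 0 had an unadjusted p under 0.05, and edgeR and DESeq2 called 0 (median -0.06). Itgb4, an integrin subunit listed as a perineurial marker, rose from 6.25 ± 2.01 to 21.5 ± 7.19 CPM (limma, adjusted p = 0.0248). It was the only 1 of 10 meningeal and perineurial genes to pass (median 0.91, changes from -0.77 to 1.61), and DESeq2 called 4 higher and 1 lower. The endothelial receptor Kdr rose from 23.1 ± 3.20 to 43.9 ± 4.46 CPM (limma, adjusted p = 0.0427), the only 1 of 12 endothelial genes to pass (median 0.28). No endothelial gene passed under median-ratio scaling, after quantile normalization or with edgeR. Over all genes 1.5% were called higher. No fibroblast gene passed in limma, although 13 of 14 had a positive change, 5 had groups without overlap and the median was 0.83. Over all genes, 63.4% had a positive change and 8.24% were higher without overlap. At an unadjusted p under 0.05, 8 were higher and 0 lower, edgeR called 0, and DESeq2 called 5, all higher. Col3a1, a fibrillar collagen, came closest at 118 ± 21.6 and 257 ± 96.5 CPM (limma, adjusted p = 0.051). Apod, apolipoprotein D, a lipocalin made by glia and fibroblasts, was picked out after its values were seen, and rose from 184 ± 94.7 to 618 ± 213 CPM (limma, adjusted p = 0.0228).

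Innate immune genes that rose included a lysozyme, a receptor of tumour necrosis factor and an interferon-induced gene. Lyz2, the lysozyme of macrophages and neutrophils (chr10:117277331-117282321, minus strand), was at 7.51, 6.43, 13.9 and 6.09 CPM in the normal and at 24.3, 14.9, 45.8 and 32.0 CPM in the paclitaxel libraries, a change of 1.63 ± 0.34 (limma, adjusted p = 0.0316). It was the only macrophage marker of 15 to pass, and it is shared with neutrophils. Of the 15, 14 had a positive change, against 63.4% of all genes (median 0.71). The complement gene C1qa changed by 0.47 and the macrophage marker Adgre1 by 0.47. Tnfrsf1a, the main receptor of tumour necrosis factor (chr6:125349362-125362484, plus strand), was at 17.6, 16.6, 30.8 and 17.4 CPM against 45.5, 32.7, 66.3 and 62.9 CPM, a change of 1.28 ± 0.27 (limma, adjusted p = 0.033). Ifitm3, an interferon-induced membrane protein, was at 2.09, 3.69, 5.94 and 5.63 CPM against 11.1, 9.70, 30.0 and 35.3 CPM, a change of 1.94 ± 0.41 (limma, adjusted p = 0.033), and was 1 of 18 interferon-stimulated genes that passed. In both genes the lowest paclitaxel value lay above the highest normal value.

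All 15 tested complement and acute-phase genes had a positive change (median 0.93) and 3 passed, against 63.4% and 1.5% of all genes. Among them Hp, the hemoglobin scavenger haptoglobin, rose from 11.6 ± 1.71 to 24.5 ± 3.82 CPM, and Cfb, factor B of the alternative pathway, from 1.32 ± 0.66 to 4.45 ± 0.86 CPM (limma, adjusted p 0.0446 and 0.0486). Neither passed under median-ratio scaling. Il18, a cytokine, was at 5.53 to 8.94 CPM in the normal and 19.4 to 25.7 CPM in the paclitaxel libraries (change 1.5 ± 0.25, limma adjusted p = 0.0168). Fcgr3, an Fc receptor, rose by 1.4 ± 0.28. Both Il18 and Fcgr3 were picked out after their values were seen. Tlr4, the lipopolysaccharide receptor, was at 4.80, 3.92, 3.32 and 1.41 CPM against 4.19, 5.34, 5.95 and 7.50 CPM, with overlap, and the interval of its change was -0.01 to 1.36 (limma, adjusted p = 0.263). The chemokine Ccl2 changed by 0.21 (interval -0.55 to 0.96).

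Among 11 tested transcripts made inside mitochondria, 3 rose, in an extract that had been cleared of mitochondria by spinning. The mt-Nd2 gene for a complex I subunit was at 479, 220, 915 and 328 CPM in normal 1 to 4 and at 1387, 1128, 3468 and 2958 CPM in paclitaxel 5 to 8, a change of 2.24 ± 0.43 (limma, adjusted p = 0.0239). The mt-Cytb gene for cytochrome b was at 1494, 773, 2656 and 773 CPM against 3052, 2698, 7298 and 6639 CPM, a change of 1.85 ± 0.43 (limma, adjusted p = 0.0449). Normal 3 was highest among the normal libraries in both, and paclitaxel 7 and 8 were above paclitaxel 5 and 6. The third that passed, mt-Atp8, overlaps mt-Atp6 on the same strand, and mt-Atp6 changed by 0.10. Over all genes 1.5% were called higher. Under median-ratio scaling 2 of the 11 passed, after quantile normalization 3, with edgeR 1 and with DESeq2 4, all higher. Of the 11, 9 had a positive change, against 63.4% of all genes, and the median was 0.98. The change was negative for mt-Co3 and mt-Nd3 (-0.75 and -0.70, neither passing). The mt-Co2 gene was nearly without reads, with group means of 0.02 and 0.17 CPM. The sum of all 13 overlapped between groups, at 3817 to 10880 CPM and 10120 to 21680 CPM. How much mitochondrial material each extract kept was not measured.

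Of 77 nuclear genes of the respiratory chain 2 passed (1.5% of all genes were called higher), Cyc1 (cytochrome c1, from 8.26 ± 4.91 to 28.4 ± 13.5 CPM) and Ndufa12 (a complex I subunit, from 69.0 ± 25.0 to 151 ± 38.7 CPM), and the median of the list was 0.46. The values of Cyc1 overlapped between groups, since normal 3 was at 15.2 and paclitaxel 6 at 13.7 CPM. Under median-ratio scaling neither passed (adjusted p 0.0704 and 0.0805 in limma). Tspo, the cholesterol-binding protein of the outer mitochondrial membrane that rises in reactive glia, was picked out after its values were seen, and rose from 6.61 ± 3.08 to 24.6 ± 11.3 CPM (limma, adjusted p = 0.033).

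No marker of nociceptors passed in limma on the values as deposited (2 higher and 6 lower of 25 at an unadjusted p under 0.05, 0 with edgeR, 3 lower with DESeq2). Scn10a, which encodes Nav1.8, was at 443, 1013, 660 and 548 CPM in normal 1 to 4 and at 598, 647, 472 and 533 CPM in paclitaxel 5 to 8, a change of -0.18 (95% interval -0.72 to 0.35; limma, adjusted p = 0.729). Calca, the gene of the peptide CGRP, was at 926, 1836, 1392 and 752 CPM against 1052, 1073, 1410 and 1309 CPM, and Trpv1, the capsaicin receptor, at 33.7, 44.3, 45.9 and 21.3 CPM against 31.8, 28.1, 40.8 and 27.7 CPM. In all 3 the normal libraries spread more widely than the paclitaxel ones and enclosed all of them. The interval of the change was -0.54 to 0.65 for Calca and -0.69 to 0.42 for Trpv1. Of the 25 markers, 10 had a positive change, 5 had groups without overlap, all 5 lower, and the median was -0.18. Over all genes, 63.4% had a positive change and 3.22% were lower without overlap. The itch peptide gene Nppb (change -1.28, adjusted p = 0.0558), the ATP receptor gene P2rx3 (-1.14, adjusted p = 0.0837) and the substance P gene Tac1 (-0.69, adjusted p = 0.0846) came closest in limma, and Nppb passed after quantile normalization (adjusted p = 0.0319). Nppb, 1 of the 5 without overlap, was at only 1.11 to 3.06 CPM in the normal and 0.15 to 0.89 CPM in the paclitaxel libraries. It met the filter on low values only through the normal group. Paclitaxel 7 and 8, at 0.23 and 0.15 CPM, were under their floors of 3 reads (0.400 CPM or more). Tac1 was at 525 to 752 CPM in the normal and 357 to 431 CPM in the paclitaxel libraries.

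Among markers of large-fibre neurons 1 gene rose. Esrrg, a nuclear receptor of proprioceptors and other large neurons, was at 5.91, 9.65, 8.22 and 3.75 CPM in the normal and at 29.2, 21.0, 16.2 and 16.8 CPM in the paclitaxel libraries, a change of 1.5 ± 0.30 (limma, adjusted p = 0.0271). It was the only 1 of 16 to pass, and the groups did not overlap. Of the 16, 13 had a positive change, against 63.4% of all genes, and the median was 0.66. Nefh, the heavy neurofilament gene, changed by 0.86 (443 ± 111 to 792 ± 128 CPM, limma adjusted p = 0.0709) and Ntrk3, the receptor of neurotrophin 3, by 0.56 (adjusted p = 0.141). The difference between the nociceptor and large-fibre lists was not tested.

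**Figure D5:**
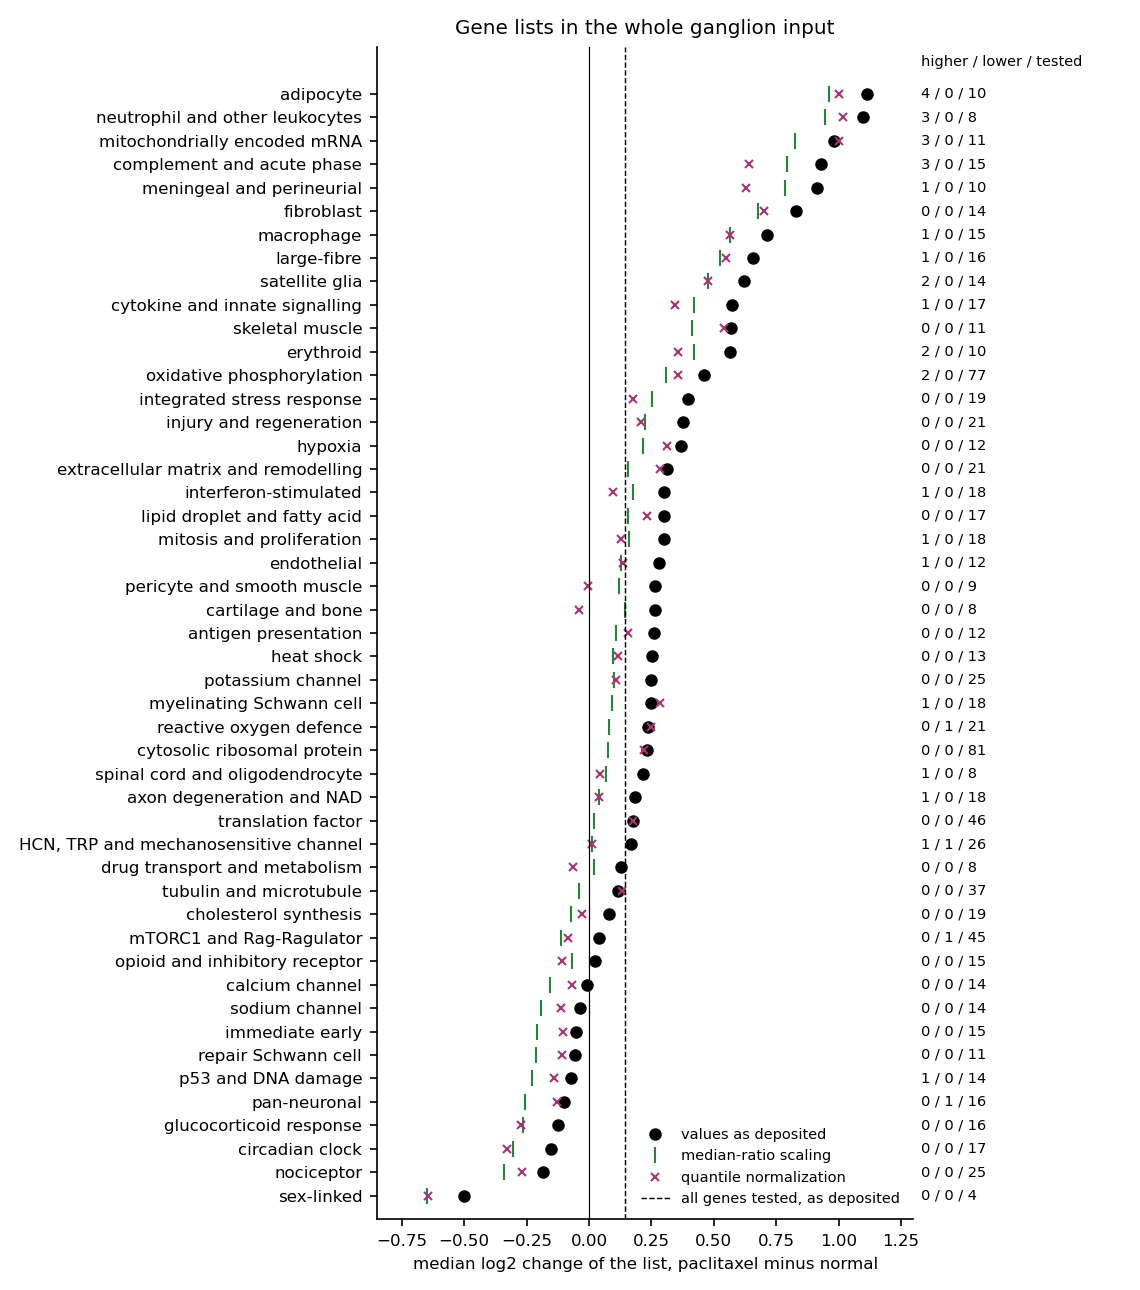
Median log2 change of each of 48 gene lists (dots), the same under median-ratio scaling and quantile normalization (ticks and crosses), and the number of members higher, lower and tested (right). Medians run from -0.50 for the 4 Y-linked genes to 1.11 for fat cell genes, and the dashed line marks all genes tested at 0.14.

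Lists of genes that respond to axon injury or to cell stress gave no call in limma. Atf3, the transcription factor induced in axotomized neurons, was at 2.37, 0.63, 3.73 and 5.16 CPM in the normal and at 5.11, 3.07, 3.22 and 4.28 CPM in the paclitaxel libraries, fully overlapping, with a change of 0.45 (interval -0.36 to 1.26; limma, adjusted p = 0.547). Of the 21 tested injury genes (median 0.38), 5 were higher and 1 lower at an unadjusted p under 0.05, edgeR called 0, and DESeq2 called 1 higher and 1 lower. Hspb1, the small heat shock protein of injured neurons, was nearest at 41.7, 46.0, 194 and 105 CPM against 207, 149, 465 and 620 CPM, a change of 1.94 ± 0.49 (limma, adjusted p = 0.0575), with paclitaxel 6 below normal 3. None of 19 integrated stress response genes (median 0.40), 13 heat shock genes (0.25), 15 immediate early genes (-0.05), 17 clock genes (-0.15) or 16 glucocorticoid-induced genes (-0.12) passed in limma on the values as deposited. At an unadjusted p under 0.05 these lists held 4, 3, 0, 2 and 4 higher and 1, 2, 2, 3 and 5 lower genes, in the same order. edgeR called 1 gene in the last list and 0 in the others, and DESeq2 called 2, 1, 0, 1 and 3. Tsc22d3, a direct target of the glucocorticoid receptor also called Gilz, was at 366, 173, 299 and 403 CPM against 107, 116, 140 and 190 CPM (change -1.13, limma adjusted p = 0.0506), and passed under median-ratio scaling with an adjusted p of 0.0394. The stress and clock gene Bhlhe40 changed by -0.65 (interval -1.29 to -0.02) and Esm1, a proteoglycan secreted by endothelium, by 0.37 (interval -0.40 to 1.14), neither passing (adjusted p 0.246 and 0.611 in limma).

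Among genes that bear on the target and the toxicity of the drug, no tubulin or microtubule gene of 37 passed in limma, with a median of 0.12 that became -0.04 under median-ratio scaling. At an unadjusted p under 0.05, 2 were higher and 3 lower, edgeR called 0, and DESeq2 called 2, both lower. Cenpf, a kinetochore protein of dividing cells (chr1:189640606-189688086, minus strand), was at 27.0, 33.5, 78.4 and 30.2 CPM in the normal and at 173, 117, 263 and 143 CPM in the paclitaxel libraries, a change of 2.09 ± 0.32 (limma, adjusted p = 0.0118). It was the only 1 of 18 cell division genes to pass, and Mki67 and Top2a changed by 0.25 and 0.24. Phlda3, a p53 target that restrains AKT, rose from 28.8 ± 14.2 to 66.3 ± 8.87 CPM and was the only 1 of 14 p53 genes to pass, while Cdkn1a changed by 0.82 (interval 0.19 to 1.46; limma, adjusted p = 0.157). Phlda3 did not pass under median-ratio scaling (adjusted p = 0.0726 in limma).

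Ion channel lists gave 2 calls in limma, both among 26 pacemaker, TRP and mechanosensitive channels. None of 14 sodium, 14 calcium and 25 potassium channel genes passed in limma, edgeR or DESeq2, although 2, 2 and 6 were higher and 0, 0 and 1 lower at an unadjusted p under 0.05. Hcn3, above, fell. The gene that rose was Trpm2, a cation channel gated by oxidative stress and expressed by neurons and immune cells (chr10:77907722-77970563, minus strand), at 23.9, 25.3, 31.1 and 23.9 CPM in the normal and at 48.3, 43.7, 76.7 and 87.1 CPM in the paclitaxel libraries, a change of 1.21 ± 0.25 (limma, adjusted p = 0.0275). Paclitaxel 7 and 8 were the highest and the groups did not overlap. Cacna2d1, the calcium channel subunit bound by gabapentin, was at 250, 285, 283 and 380 CPM against 314, 348, 222 and 223 CPM, with overlap and an interval of -0.59 to 0.34. Gad2, an enzyme that makes GABA and was listed as a spinal cord marker, rose from 4.22 ± 1.63 to 14.8 ± 2.57 CPM (limma, adjusted p = 0.0197), and the other 7 tested genes of that list did not pass.

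Pulldown libraries of the same 8 biosamples hold RNA on tagged ribosomes of Nav1.8 neurons, and a fit with each biosample as a replicate block tested whether paclitaxel changed a gene differently there than in the input. Of 13866 genes 27 passed (0.195%), and 0 of the 234 genes called in the input were among them in limma (32 of the 208 higher and 7 of the 26 lower at an unadjusted p under 0.05, that is 15.4% and 26.9%, against 11.5% of all genes). The input values that selected the 234 genes also enter the gap, so these shares are not independent of the selection. The median gap was -0.395 for the higher, -0.0605 for the lower and 0.0203 for all genes. With only 0.195% of all genes passing, 0 of 234 is no result about these genes. Without the block 0 genes passed. Leaving out biosample 2, 5, 6, 7 or 8 left 6, 3, 4, 0 and 12 genes with a higher change in the pulldown, against 23 with all, and leaving out biosample 3 or 4 gave 71 and 46. Calca, whose input values overlapped, was at 523, 717, 950 and 368 CPM in the normal and at 1994, 1803, 2977 and 1720 CPM in the paclitaxel pulldowns, so that the change in the pulldown exceeded that in the input by 1.72 ± 0.26 (limma, adjusted p = 0.00636). Nefm, the medium neurofilament gene, was at 1096 ± 279 and 938 ± 150 CPM in the inputs and at 2239 ± 913 and 809 ± 170 CPM in the pulldowns, a gap of -1.21 ± 0.25 (limma, adjusted p = 0.0386). Among the other genes with a gap were Ndufa4, Ndufb6 and Rpl37, of the respiratory chain and the ribosome (1.81, 1.55 and 1.70, limma adjusted p 0.0187 to 0.0387). Every paclitaxel pulldown of Calca lay above every normal one, and every one of Nefm below.

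For 4 of the genes that fell in the input, the pulldown values stood side by side as follows. Gpx4 was at 1624 ± 486 CPM in the normal and 314 ± 40.9 CPM in the paclitaxel pulldowns (SD, n = 4), Akt1s1 at 124 ± 35.2 and 20.7 ± 5.33 CPM, and Cct8 at 3772 ± 1998 and 681 ± 246 CPM. Hcn3 was at 89.2 ± 14.3 and 75.3 ± 16.7 CPM. For none of these 4 did the change differ between pulldown and input beyond the threshold (limma, adjusted p 0.1 to 0.41, unadjusted p 0.000854 to 0.0421). Within the pulldown, Gpx4, Akt1s1 and Cct8 fell (limma, adjusted p 0.00847 to 0.0142) and Hcn3 did not pass (adjusted p = 0.697). Among other falling genes named above, Nup88 also passed in the pulldown (limma, adjusted p = 0.033). Uchl1, Tlx3, Sepw1, Drg2, Polr2h, Mfsd7b, Atp6v1h and Dck did not (limma, adjusted p 0.074 to 0.59), and the change of Atp6v1h there was -0.38. Blood and fat cell genes were also present in the pulldowns, with Hbb-bs at 60.6 ± 20.3 CPM in the normal and 187 ± 109 CPM in the paclitaxel group, S100a8 at 55.6 ± 27.8 and 141 ± 96.9 CPM, Hba-a1 at 12.6 ± 6.42 and 25.6 ± 30.9 CPM, and Cfd at 4.83 ± 4.84 and 25.4 ± 4.71 CPM.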

How the data were processed

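RNA of 8 ganglion extracts (inputs) and of the ribosomes pulled down from them was sequenced as 3′ end libraries. The submitters' processing notes name FastQC 0.11.5, TopHat2 2.1.1, Bowtie2 2.2.9, Cufflinks 2.2.1 and the build GRCm38.p4, and the annotation is GENCODE vM10 per the file headers. The deposited values are called TPM in the header, but they are whole multiples of 1 read in 98.2% to 98.8% of the values of each input (within 0.0051 CPM) and were not divided by length, so they are treated as the authors' CPM. Whether reads were counted by strand is not given in the sources used here.

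Subsamples of biosample 7 were averaged, and 2 merged columns were not used. Values were tested as log2(CPM + 1) in R 4.3.3, using limma 3.58.1 with a mean-variance trend and Benjamini-Hochberg adjustment over 13866 genes (two-sided, threshold 0.05). Genes had to reach 1 CPM in at least 4 of the 8 inputs. Fold changes on this scale understate the change of low genes. The comparison with the pulldown had biosample as a replicate block, since both libraries of a biosample come from 1 homogenate. Median-ratio scaling, quantile normalization, filters, pseudocounts, leaving out each biosample, and edgeR 4.0.16 and DESeq2 1.42.0 on the recovered reads were alternatives. The fits were tested on simulated data.

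Named were the 12 genes per direction with the largest change among passing genes without overlap and with a mean of at least 5 CPM, 17 subject genes, and per list up to 4 members with the lowest p and its passing members. The comparison, the 48 lists and this rule were chosen with earlier results of these data known. Other genes named were chosen after their values were seen. The floor of 3 reads was 0.207 to 0.703 CPM per input, for counting error only. Gene coordinates and biotypes are of GENCODE on GRCm38, and promoter windows are of RefSeq. Some results are not reported here, and most called genes are given only in counts.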

Additional observations from a re-analysis of the deposited data

Results flagged for a closer look

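Each group of 4 inputs was searched for 1 library far from the other 3, by Dixon's criterion at 95%, which chance alone meets in about 1 of 20 groups. It was met in 14 of 430 groups of named genes and in 3 of 96 groups of summed lists. Normal 3 stood apart most often. It was the highest of the normal libraries for Loxl2 (45.45 CPM, others 13.6 to 16.07), Cenpf (78.39, others 26.99 to 33.5), Tnfrsf1a (30.81, others 16.63 to 17.6), Ndufs3 (15.13, others 10.67 to 11.25), Slc6a13 (9.81, others 2.81 to 3.29) and Mmp2 (6.7, others 3.06 to 3.52), and the lowest for Nppb (1.11, others 3.05 to 3.06). Loxl2, Cenpf and Tnfrsf1a all rose after paclitaxel, and in each of them normal 3 lay below every paclitaxel library. Without normal 3 the count of genes called went from 208 higher and 26 lower to 357 and 34.

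Normal 4 was highest for the tubulin gene Tuba1c (85.09 CPM, others 40.63 to 44.69), for the protease gene Adamts1 (67.28, others 26.91 to 33.57) and for the sum of integrated stress response genes (3814, others 2771 to 2913). Normal 1 was highest for Dck (127.1, others 61.11 to 71.21), and Dck fell after paclitaxel. Paclitaxel 7 was highest for the granule gene Ngp (239.9, others 107.9 to 124.5) and for Eif4ebp1 (8.52, others 5.31 to 5.81), and lowest for the sum of neuronal markers (13930, others 15790 to 15950). Paclitaxel 8 was lowest for Gfap (0.76, others 4.39 to 4.99) and for the chemokine Cxcl12 (33.66, others 53.03 to 55.88), and paclitaxel 6 was lowest for the sum of translation factors (10770, others 10980 to 11020).

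Among the named or listed genes, 5 changed differently in the pulldown than in the input in the fit with biosample as a block (limma, adjusted p under 0.05). The gap, pulldown minus input on the log2 scale, was 1.725 for Calca, 1.699 for Rpl37, 1.809 for Ndufa4, 1.552 for Ndufb6 and -1.213 for Nefm. None of these 5 passed in the input itself, where their adjusted p was 0.237 to 0.935 in limma.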

How the results depend on the processing

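The 208 higher and 26 lower genes of the input comparison became 21 and 0 with no filter, 105 and 52 under median-ratio scaling, 113 higher under quantile normalization, 542 and 112 at a threshold of 0.1, 503 and 149 with array weights, 99 and 46 with edgeR, and 379 and 431 with DESeq2. The lower genes became 15 with subsample 1 of biosample 7 alone and 10 without the intensity trend. With each biosample left out in turn, the counts ran from 0 to 676 higher and from 0 to 182 lower. Both counts were 0 without biosample 1 and highest without biosample 2. The cause was not tested.

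The 23 genes with a higher and 4 with a lower gap between pulldown and input became 0 and 0 with no replicate block, with the replicate block as a random effect, with no filter and without the intensity trend. They became 12 and 1 with a pseudocount of 0.1, 6 and 0 under quantile normalization, 5 and 0 with subsample 1 alone, and 84 and 27 at a threshold of 0.1. The lower count was 9 under median-ratio scaling and 1 with subsample 2 alone. With each biosample left out they ran from 0 to 71 and from 0 to 14, both 0 without biosample 7 and highest without biosample 3. No paired analysis was possible for the input comparison because biosamples 1 to 4 and 5 to 8 share no number.

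List medians moved for macrophages from 0.71 to 0.56 (median-ratio) and 0.57 (quantile), for cytokine genes from 0.57 to 0.42 and 0.35, for interferon-stimulated genes from 0.30 to 0.0942 (quantile), for p53 genes from -0.07 to -0.23 and for translation factors from 0.17 to 0.0184 (both median-ratio). Of the 52 named genes that passed, none reversed, which the lack of overlap between groups in nearly all called genes largely fixed beforehand. Leaving out a biosample ended 221 of 416 calls, and other alternatives ended 123 of 773. The precision is limited by 4 biosamples per group, and a gene near the floor of 3 reads cannot be told from 0.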
